A study of Danio rerio with 30 samples.

Results

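The genes described here encode the protein channel through which newly made secretory and membrane proteins enter the endoplasmic reticulum (ER), and the proteins that work beside it. They are sec61a1 and sec61a1l (the paralogous channel subunits of Sec61 alpha), sec61b and sec61g (Sec61 beta and gamma), sec62 and sec63 (the Sec62 and Sec63 partners), ssr2, ssr3 and ssr4 (the beta, gamma and delta subunits of the translocon-associated protein complex, TRAP) and serp1 (also called RAMP4). The members are a fixed list of gene symbols, and no measured value entered the match to the features. The list was chosen with earlier results of these data known, so counts of calls among the members are not blind to those results. All 10 symbols were found, in 11 features of 27597, since 2 features carry the symbol serp1 and were summed. The features carry 26847 distinct symbols in all.

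Ribosomes that translate a protein with a signal sequence dock onto the Sec61 channel, whose alpha subunit forms the pore and whose small beta and gamma subunits each span the membrane. TRAP sits beside the channel and helps certain signal sequences to open it, Sec62 and Sec63 serve substrates that enter slowly or after translation, and RAMP4 is a small protein that binds at the channel and the ribosome. Genes of this machinery are known targets of transcription factors of the unfolded protein response in mammalian secretory cells. Xbp1, Atf6, Creb3l1 and Creb3l2 are bZIP factors of this kind. Xbp1 is activated by splicing of its mRNA, and the other factors by release of their N-terminal part from the membrane.

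Whole zebrafish embryos of the TL/AB strain were dissociated and read by droplet-based single-cell RNA sequencing (10x Genomics, V3 chemistry), with about 30 embryos pooled into each library, so that a library is 1 pool and not 1 animal. At 12 hours post fertilization (hpf), 16 libraries covered loss of xbp1, atf6, creb3l1 and creb3l2, alone and together, and at 8 hpf 6 libraries covered injection of factor mRNA. The design asks which of the factors the genes of the secretory pathway need in which tissue, and which of them a factor can raise. No label says that libraries of 1 group came from separate crosses, so p-values measure the spread between libraries. Most groups at 12 hpf have 1 library. Where the losses are fitted as effects that add up, that spread therefore also includes any departure from adding up.

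The loss groups at 12 hpf were the quadruple loss (xbp1, atf6 and creb3l2 targeted in a creb3l1 homozygous mutant, 2 libraries), and xbp1 with creb3l2 or atf6 with creb3l2 targeted in the creb3l1 mutant (1 library each). The other losses were creb3l2 targeted in the creb3l1 mutant, xbp1 with atf6, and xbp1, atf6, creb3l1 or creb3l2 targeted alone (1 library each), and the uninjected creb3l1 homozygous mutant (2 libraries). A targeted gene means a crispant, an embryo injected with Cas9 and guide RNA at the 1-cell stage and read in the same generation. The references were tyr crispants (injected, with the pigment gene tyr targeted, 2 libraries) and uninjected wild-type embryos (2 libraries). Thus 5 libraries lacked xbp1 and 11 had it, 5 lacked atf6 and 11 had it, 8 lacked creb3l1 and 8 had it, and 6 lacked creb3l2 and 10 had it. At 8 hpf, xbp1 crispants received 40 pg of mRNA for the N-terminal part of creb3l2 (creb3l2-N), of creb3l1 (creb3l1-N) or of atf6 (atf6-N), or for mCherry, and embryos that were not xbp1 crispants received 40 pg of full-length creb3l2 or 125 pg of mCherry mRNA, with 1 library in each group.

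The 12 hpf libraries held 1759 to 5822 cells each after filtering (62385 in all) and 37677042 to 120722910 unique molecular identifiers (UMIs, counted molecules), and the 8 hpf libraries 1805 to 4916 cells (19021) and 40560649 to 100654147 UMIs. No pair of libraries shared more than 13 cell barcodes. Levels (CPM) are a gene's UMIs scaled to 1000000 UMIs, summed over the cells of a class in a library. Of the hatching gland markers in the features 8 of 9 were detected in the hatching gland-like class, and of the notochord markers 11 of 11 in the notochord-like class. Among the targeted genes, xbp1 was lower in hatching gland-like cells of all 5 libraries without it (1464 to 4335 CPM, against 4519 to 5522 in the others), and atf6 and creb3l2 were lower in every library that lacked them than in any that had them, in both secretory classes. In hatching gland-like cells creb3l2 was near the floor (0 to 2.8 CPM without it, against 3.6 to 13.2 with it), so its check there rests on few UMIs. In notochord-like cells it had 14.0 to 41.1 CPM without it, against 53.0 to 147 with it. The level of creb3l1 did not separate its groups in either class (in notochord-like cells 35.5 to 158 CPM in libraries without it, against 69.2 to 132 with it), so for creb3l1 the mRNA level did not check the labels. In notochord-like cells the xbp1 levels overlapped (260 to 773 CPM without it, against 458 to 1135 with it).

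In the 4 control libraries, hatching gland-like cells, which make the proteases that digest the egg envelope, devoted the largest share of their UMIs to these genes, with notochord-like cells next. The summed level was 25520 ± 4020 CPM in hatching gland-like cells (SD, n = 4), or 2.55% of all UMIs, and 16170 ± 2786 CPM in notochord-like cells, which lay down a collagen-rich sheath. It was 13240 ± 2285 in yolk syncytial layer-like cells, of which a library held as few as 5, and 5843 ± 522 in floor plate-like cells. At the low end were presomitic mesoderm-like cells with 2497 ± 245 CPM, and all cells outside the hatching gland-like and notochord-like classes together had 3540 ± 360. Over 23 named classes ordered by this sum, the 4 libraries of neighbouring classes overlapped at 20 of the 22 steps, and did not overlap between hatching gland-like and notochord-like cells or between yolk syncytial layer-like and floor plate-like cells.

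**Figure D1:**
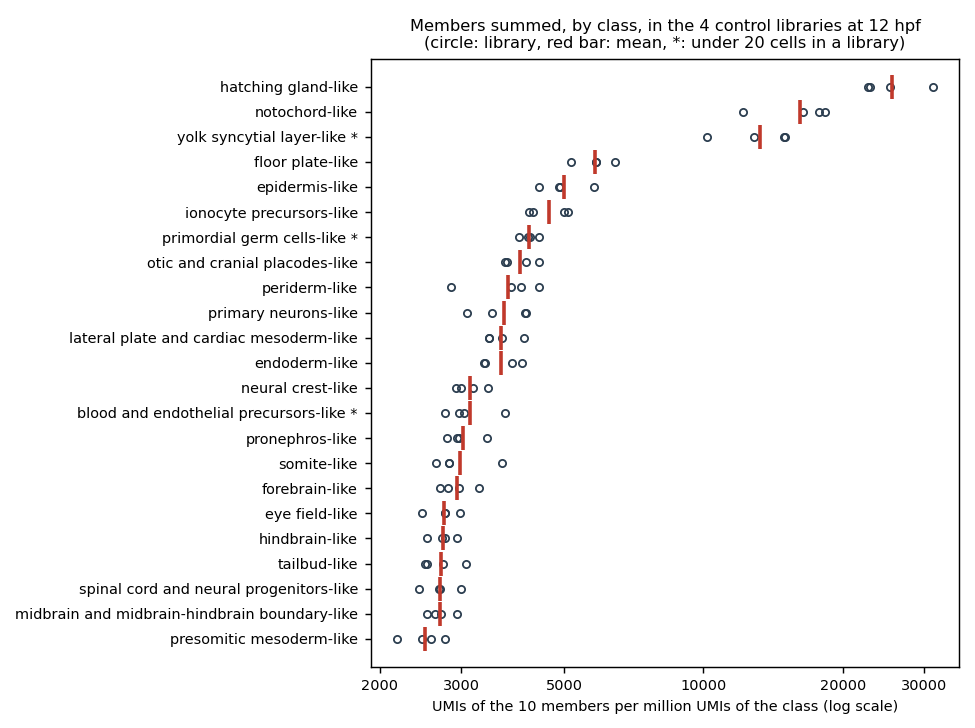
Summed level of the 10 members (CPM, log scale) in each named class at 12 hpf, with a circle for each of the 4 control libraries and a red bar for their mean; an asterisk marks classes with under 20 cells in a library. Hatching gland-like (22630 to 31270) and notochord-like cells (12180 to 18320) stand at the top and do not overlap.

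Within the 2 secretory classes the members did not share 1 profile. For sec61a1l the level in control hatching gland-like cells was 970 ± 170 CPM, in notochord-like cells 650 ± 111 and in all other cells 57.8 ± 3.0, whereas for sec62 it was 138 ± 50, 161 ± 47 and 91.4 ± 25.1. In hatching gland-like over notochord-like cells of the same 4 controls (a paired fit with edgeR's quasi-likelihood test), 9 of 10 members were higher, by 0.63 for serp1 to 1.44 for sec61b on the log2 scale, and sec62 did not pass the test (0.26, SE 0.11, edgeR adjusted p 0.077). Between these classes 58.8% of all tested genes differed, so a call here is common. These changes use TMM factors, which hold the median gene near no change (-0.04), and so lie above the CPM ratios. Scaled by library totals, as CPM are, the median gene lay at -0.53, 1573 genes were called higher and 4397 lower (2633 and 2617 with TMM), and 7 members were called higher. On that scale serp1 (0.13, edgeR adjusted p 0.254) and sec63 (0.24, edgeR adjusted p 0.0729) were not called, and the estimate for sec62 turned to -0.24 (edgeR adjusted p 0.104). With cells picked by markers in place of clusters, 1 of the 9 calls was left.

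In hatching gland-like cells, the mean summed level of these genes in the libraries without xbp1 was 0.21 of that in the other libraries. In the additive fit for loss of xbp1, 9 of 10 members, all but sec62, were called lower and none higher, while 9.6% of the 8621 genes tested were called. The median log2 change was -2.15 over the members and -0.003 over all genes. The summed level was 8790, 3790, 4771, 4508 and 4444 CPM in the xbp1 crispant, the xbp1+atf6 crispant, the xbp1+creb3l2 crispant in creb3l1 mutant and quadruple loss libraries 1 and 2, against 20700 (lowest), 23600 (median) and 31270 (highest) in the 11 libraries with xbp1. The groups were far apart, and among those without xbp1 the xbp1 crispant library had the highest sum. It is the only one of them that keeps atf6, creb3l1 and creb3l2, so the ratio of 0.21 also includes other losses. It also had the most xbp1 mRNA of them, 4335 CPM, against 4519 CPM in the lowest library with xbp1. The part of this remaining xbp1 mRNA was not tested. Per cell, the members' UMIs summed to a mean of 135 without xbp1 and 635 with it.

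The 2 genes for Sec61 alpha fell together. In the 5 libraries without xbp1, in the order above, sec61a1 had 371, 152, 175, 252 and 199 CPM, against 736 (lowest), 1152 (median) and 1370 (highest) in the 11 libraries with xbp1. Its paralog sec61a1l had 249.5, 38.0, 96.6, 136 and 118 CPM, against 527, 897 and 1214. Neither gene's groups overlapped, and whether reads of one paralog were counted for the other was not tested. On the log2 scale sec61a1 fell by 2.16 (SE 0.19, adjusted p 2.05e-07 by edgeR's quasi-likelihood test with Benjamini-Hochberg adjustment) and sec61a1l by 2.75 (SE 0.31, adjusted p 4.04e-06).

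The small subunits of the channel moved the same way. For sec61b the 5 libraries without xbp1 had 1237, 413, 512.5, 517 and 594.5 CPM, against 2702, 3994 and 6034 (lowest, median and highest) in the 11 with it. For sec61g they had 2995, 1211, 1637, 1546 and 1095 CPM, against 5481, 7184 and 9967. In both genes every library without xbp1 was below every library with it. The fitted falls were 2.64 (SE 0.21, edgeR adjusted p 9.74e-08) for sec61b and 2.02 (SE 0.16, edgeR adjusted p 7.35e-08) for sec61g, on the log2 scale.

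The Sec62 and Sec63 genes stood apart from the channel. For sec62 the libraries without xbp1 had 84.9, 83.0, 148, 191 and 142 CPM, against 86.2, 121 and 255 in those with it, the groups overlapped, and the change of -0.30 (SE 0.17) did not pass the test (edgeR adjusted p 0.331). For sec63, whose J domain recruits the lumenal chaperone BiP, they had 69.4, 68.8, 140, 175 and 136 CPM, against 122, 153 and 302. The groups of sec63 overlapped, and it fell by 0.87 (SE 0.16, edgeR adjusted p 0.00107), less than any other member called. The libraries fall into 2 sets of 8 by the Cell Ranger version in their headers (set A, 3.1.0, and set B, 6.1.2). Within set A sec63 had 68.8 and 69.4 CPM without xbp1, against 122 to 153 with it, and within set B 136 to 175 against 181 to 302. The groups thus separated within each set, but no share of all genes is given for these small splits. In set B the libraries without xbp1 also all lack creb3l1 and creb3l2. The call of sec63 was lost without the set term (-0.67, edgeR adjusted p 0.172) and with cells picked by markers (-0.49, edgeR adjusted p 0.213).

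All 3 TRAP members fell. For ssr2 the libraries without xbp1 had 664, 342, 583, 535 and 543 CPM, against 2009, 2726 and 2939 with it, and the groups did not overlap. For ssr3 they ranged from 508 to 1208 CPM, against 2549 to 4367, and for ssr4 from 408 to 1170, against 2193 to 4124. On the log2 scale the falls were 2.28 (ssr2, SE 0.15), 2.13 (ssr3, SE 0.16) and 2.199 (ssr4, SE 0.16), each with an edgeR adjusted p of 6.34e-08. The remaining TRAP subunit, alpha, is the gene ssr1, which is no member, and it also fell, by 1.79 (SE 0.25, edgeR adjusted p 4.04e-05).

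For serp1 the libraries without xbp1 had 742, 324, 308, 239 and 330.5 CPM, against 1368, 1673 and 2494 with it. The groups did not overlap, and serp1 fell by 2.095 (SE 0.19, edgeR adjusted p 2.05e-07). Its 2 features both fell when read apart, ENSDARG00000099439 by 2.28 (SE 0.21) and ENSDARG00000076223 by 1.23 (SE 0.14). Whether these features are paralogs that share reads was not tested, so their separate values are uncertain.

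Over the 10 members, 8 had all 5 libraries without xbp1 below all 11 with it in hatching gland-like cells, and 3.96% of 7247 genes with enough UMIs did so. Within set A the differences of the mean log2 levels of these 8 ran from -2.001 to -3.11 and within set B from -2.23 to -2.90. Since these 8 were picked for groups that do not overlap, a fall within each set was fixed in advance, and only its size is read. In set B the libraries without xbp1 also lack creb3l1 and creb3l2, so these losses cannot be told apart there. All 9 calls were made in each of the 16 fits that left out 1 library. The libraries without xbp1 had as many hatching gland-like cells (45 to 85, against 31 to 147) and a like summed level of hatching gland markers (29710 to 47430 CPM, against 30800 to 44080). The summed level of 3 hsp70 heat shock genes was higher in them (19.4 lowest, 834 median and 1384 CPM highest, against 2.34, 5.82 and 54.5), and its part in the result was not tested.

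**Figure D2:**
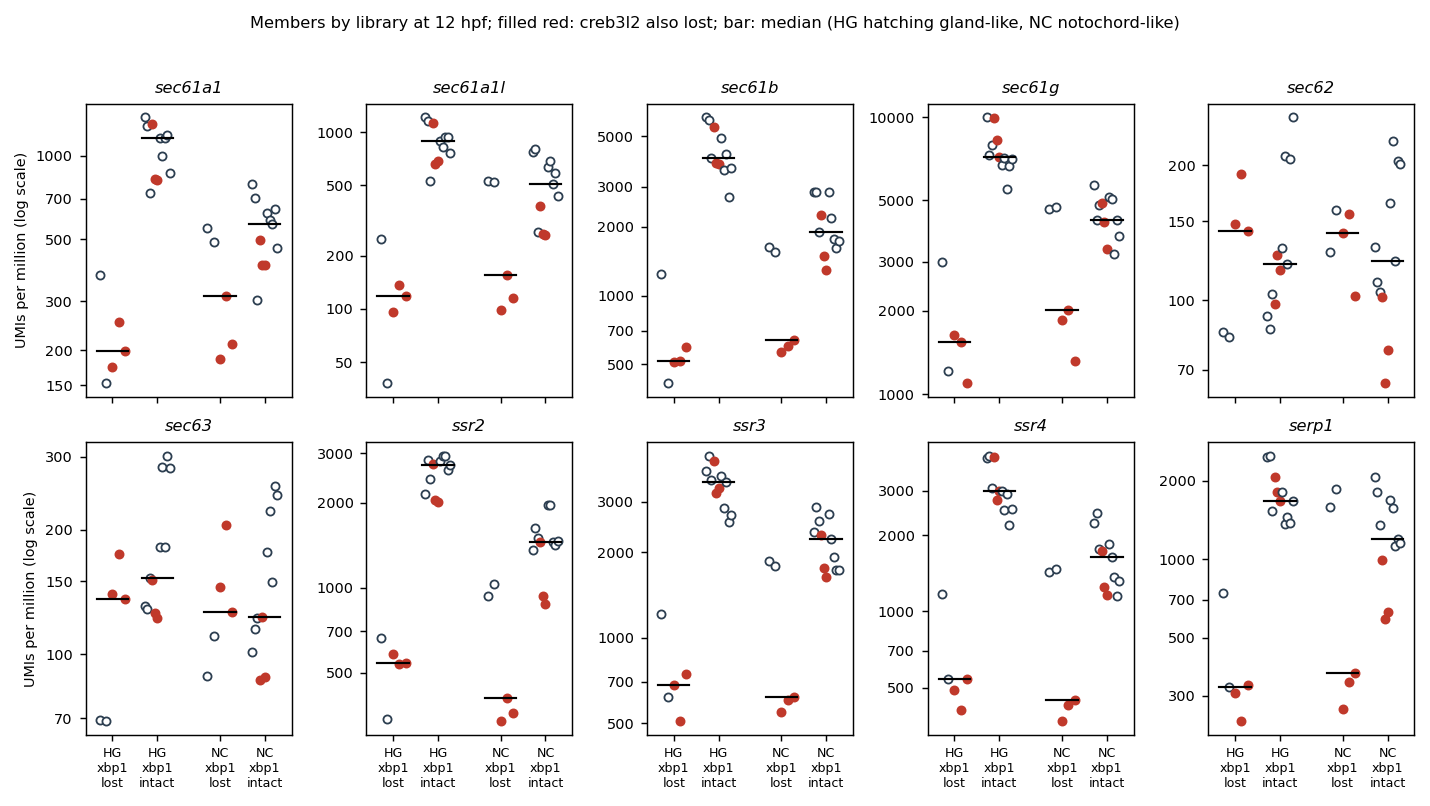
Level of each member (CPM, log scale) in every 12 hpf library, libraries without xbp1 left of those with it, in hatching gland-like (HG) and notochord-like (NC) cells; filled red points also lack creb3l2 and bars are medians. In HG cells the groups of 8 members do not overlap, while in NC cells the 2 libraries that lack xbp1 but not creb3l2 lie within the range of those with xbp1, which include libraries without creb3l1 or creb3l2.

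In notochord-like cells the summed level was lowest in the 3 libraries that lacked xbp1, creb3l1 and creb3l2 together. The additive fit called 4 members lower, sec61b and all 3 TRAP members, where 0.193% of 9328 genes were called. The summed level was 13400 CPM in the xbp1 crispant, 13710 in the xbp1+atf6 crispant, 4504 in the xbp1+creb3l2 crispant in creb3l1 mutant, and 5211 and 4301 in the quadruple loss libraries, against 9761 (lowest), 14680 (median) and 18320 (highest) in the 11 libraries with xbp1. The first 2 of these lay within the range of all libraries with xbp1, some of which lack creb3l1 or creb3l2, and the other 3 below it. The notochord-like class joins 2 clusters, with 1209 and 721 cells before doublets were removed. Their median UMI counts per cell were 5302 and 16000, and 12.5% and 0.28% of their cells were marked as doublets. The mix of these clusters in each library is not given, and its part in the sums was not tested.

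The 4 members called for loss of xbp1 in notochord-like cells were ssr2 (-1.08, SE 0.15, edgeR adjusted p 0.00387), sec61b (-0.88, SE 0.12, edgeR adjusted p 0.00294), ssr3 (-0.87, SE 0.13, edgeR adjusted p 0.00536) and ssr4 (-0.87, SE 0.11, edgeR adjusted p 0.00251). For ssr2 the libraries without xbp1, in the same order, had 932, 1033, 336, 407 and 359 CPM, against 876, 1455 and 1968 in those with it. The groups of all 4 genes overlapped. Within set A, where the 2 libraries without xbp1 keep creb3l1 and creb3l2, the differences of the 10 members lay between -0.36 (ssr2) and 0.63 (serp1), but 4 of the 6 libraries with xbp1 lack creb3l1, creb3l2 or both. Against the 2 set A libraries with xbp1 that keep both, a reading chosen after seeing the data, the summed level was 13400 and 13710 CPM in the xbp1 and xbp1+atf6 crispants, against 18320 and 17580 in tyr crispant 1 and the atf6 crispant. In the same order sec61b had 1640 and 1547 CPM, against 2855 and 2832, and ssr4 had 1430 and 1473 CPM, against 2236 and 2448. In this reading 6 members (both Sec61 alpha genes, sec61b and the 3 TRAP genes) were lower without overlap, as were 17.7% of 7891 genes, and sec61g, sec62, sec63 and serp1 overlapped; with 2 libraries a side no test was made. Within set B the 3 libraries without xbp1 are the same 3 that lack creb3l2, the differences lay between -0.40 (sec63) and -2.21 (sec61a1l), and the losses cannot be told apart. All 4 calls were lost without the xbp1 crispant library, 2 were left without the xbp1+creb3l2 crispant in creb3l1 mutant library, and 2 were left without the set term. The notochord marker sum overlapped (7173 to 12370 CPM without xbp1, against 5128 to 11680 with it).

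Loss of creb3l2 lowered 6 members in notochord-like cells, with serp1 first, where 2.3% of genes were called. In the 6 libraries without creb3l2 serp1 had 266 (lowest), 478 (median) and 989 CPM (highest), against 1122, 1579 and 2056 in the 10 libraries with it. It was the only member whose groups did not overlap, as did 1.08% of 7891 genes. It fell by 1.28 (SE 0.14, edgeR adjusted p 0.000191), and both of its features fell (by 1.02 and 1.39). Within set A serp1 had 591 to 989 CPM without creb3l2, against 1346 to 2056 with it, and within set B 266 to 365, against 1122 to 1681. Since its groups did not overlap over all libraries, their separation within each set was fixed in advance. No share of all genes is given for these splits. In set B the libraries without creb3l2 all lack xbp1 and creb3l1 too, so the losses cannot be told apart there. The creb3l2 crispant, with 989 CPM, is the only library without creb3l2 that keeps creb3l1. The call of serp1 held under every alternative run.

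The other 5 members lowered by loss of creb3l2 in notochord-like cells had overlapping groups. For sec61a1l the libraries without creb3l2 had 98.7, 210 and 382.5 CPM, against 272, 560 and 809.5 with it, and it fell by 1.02 (SE 0.20, edgeR adjusted p 0.00674). The remaining calls were ssr2 (-0.66, edgeR adjusted p 0.022), ssr4 (-0.62, edgeR adjusted p 0.00392), ssr3 (-0.57, edgeR adjusted p 0.0269) and sec61b (-0.47, edgeR adjusted p 0.0464). Of the 6 calls 2 were left without the set term and 1 with cells picked by markers. Leaving out the creb3l2 crispant, the creb3l2 crispant in creb3l1 mutant, the xbp1+creb3l2 crispant in creb3l1 mutant, the xbp1+atf6 crispant or the creb3l1 crispant left 3 each.

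Loss of creb3l1 lowered 2 members in notochord-like cells, sec61b (-0.56, SE 0.11, edgeR adjusted p 0.0236) and ssr4 (-0.46, SE 0.11, edgeR adjusted p 0.0394), where 1.22% of genes were called. For sec61b the 8 libraries without creb3l1 had 568.1, 1393 and 1897 CPM (lowest, median and highest), against 1547, 2231 and 2857 in the 8 with it, and the groups overlapped. Single libraries decided these calls. None was left without either creb3l1 mutant library, the creb3l2 crispant or tyr crispant 2, and 4 members were called without wild type 2. A single call was left without the xbp1 crispant, the xbp1+atf6 crispant, wild type 1, quadruple loss 1, or the creb3l2, atf6+creb3l2 or xbp1+creb3l2 crispant in creb3l1 mutant.

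**Figure D3:**
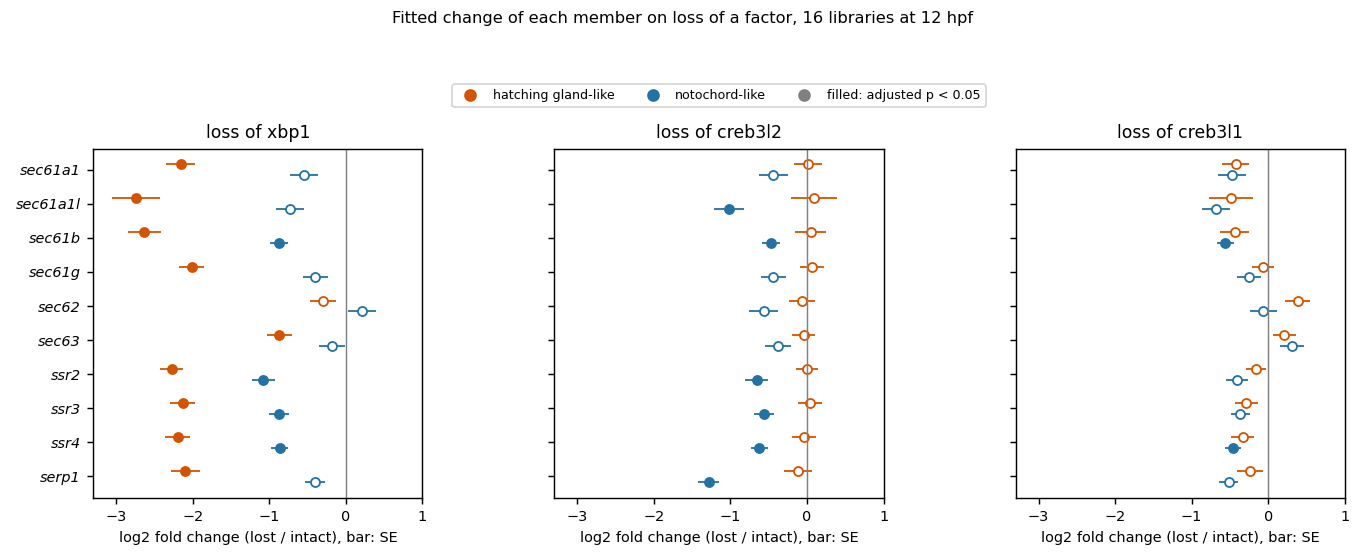
Fitted log2 fold change (lost over intact, bars are SE) of each member for loss of xbp1, creb3l2 and creb3l1 at 12 hpf, in hatching gland-like and notochord-like cells, with filled points for an edgeR adjusted p under 0.05. For xbp1 in hatching gland-like cells 9 points lie between -0.87 and -2.75, and for creb3l2 in notochord-like cells 6 filled points lie between -0.47 and -1.28.

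Loss of the other factors called none of the members in hatching gland-like cells. Both creb3l2 and creb3l1 were themselves near the floor in these cells, at no more than 13.2 and 5.5 CPM in any library. For creb3l2 the estimates ran from -0.12 to 0.10, none of the 8621 genes was called by edgeR or DESeq2 and 333 had an unadjusted p under 0.05. For creb3l1 (-0.49 to 0.39) no member was called by either tool, where 1.4% of genes were, and 1425 genes had an unadjusted p under 0.05. For atf6 the estimates ran from -0.62 to -0.15, with sec61g at -0.62 (SE 0.15, edgeR adjusted p 0.545), 0.0116% of genes were called, 442 had an unadjusted p under 0.05, and DESeq2 called 1 member, sec61g. In notochord-like cells loss of atf6 called no member by edgeR or DESeq2 (-0.35 to 0.09, with 0.0107% of genes called and 287 at an unadjusted p under 0.05).

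The effect of xbp1 loss differed between the 2 classes. A fit over both classes of each library, with the library as a block, tested the difference of the log2 changes, hatching gland-like minus notochord-like. It was called for 9 of 10 members, where 4.15% of 10377 genes were called, and it was negative for all of them. It was largest for sec61a1l (-2.102, edgeR adjusted p 6.99e-05), sec61b (-1.78) and serp1 (-1.68), smaller for ssr4 (-1.32), ssr3 (-1.24) and ssr2 (-1.17), and -0.62 for sec63 (edgeR adjusted p 0.0309). For sec62 it was -0.47 (edgeR adjusted p 0.096). For loss of creb3l2 the difference was called for serp1 (1.21, edgeR adjusted p 0.00169), sec61a1l (1.18, edgeR adjusted p 0.0366) and ssr4 (0.61, edgeR adjusted p 0.0422), where 1.63% of genes were called. That count of 3 ran from 1 to 6 when 1 library was left out, at 1 without creb3l1 mutant 1 or 2, the creb3l1 crispant, the creb3l2 crispant, the atf6+creb3l2 or xbp1+creb3l2 crispant in creb3l1 mutant or quadruple loss 2, at 5 without the xbp1 crispant and at 6 without the atf6 crispant. For loss of atf6 and of creb3l1 no difference of a member was called by edgeR or DESeq2 (510 and 961 genes with an unadjusted p under 0.05, and 0.0% and 0.0578% of genes called).

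A fit with a term for xbp1 and creb3l2 together, chosen after seeing the data, asked whether the combined loss differs from the sum of the single losses. Every library that lacked both xbp1 and creb3l2 also lacked creb3l1, so this term cannot be told apart from a term for xbp1 and creb3l1. The fit called the term for 0 members, and for 0 genes of the whole table, in either class, by edgeR and by DESeq2. An unadjusted p under 0.05 was found for 241 genes in hatching gland-like and 232 in notochord-like cells. The estimates for the members ran from -0.57 to 0.64 in hatching gland-like cells. In notochord-like cells all 10 were negative, from -0.95 (sec61a1l, SE 0.47) to -0.17 (sec61b, SE 0.32). In this fit the effect of xbp1 loss where creb3l2 is present was called for 9 members in hatching gland-like cells (4.51% of genes) and for 0 members and 0 genes in notochord-like cells, where 364 genes had an unadjusted p under 0.05. That effect rests on the xbp1 crispant and the xbp1+atf6 crispant, both in set A. The effect of creb3l2 loss where xbp1 is present was called in notochord-like cells for serp1 alone (-1.10, SE 0.17, edgeR adjusted p 0.015; 0.665% of genes). No gene at all was called for it without creb3l1 mutant 1 or without the creb3l2 crispant in creb3l1 mutant, and 1 gene without the atf6+creb3l2 crispant in creb3l1 mutant.

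With all 4 factors lost, the channel and TRAP genes were low in both classes. Against the 2 tyr crispant libraries, 8 members were lower in hatching gland-like cells (4.17% of genes called) and 8 in notochord-like cells (2.41%), and sec62 and sec63 were called in neither. Both quadruple loss libraries are in set B, while the tyr crispant libraries are 1 in each set, so part of this difference cannot be told apart from set. The spread was estimated with 4 residual degrees of freedom over 4 groups of 2 libraries, which also include the wild type and the creb3l1 mutant. Without tyr crispant 1, which leaves tyr crispant 2 of the same set, 8 calls were made in hatching gland-like cells and 5 in notochord-like cells. In notochord-like cells the quadruple loss libraries had 156 and 116 CPM of sec61a1l, against 772.5 and 632 in the tyr crispants, and 338 and 365 CPM of serp1, against 2056 and 1681. These 2 genes had the largest fitted falls of the members in these cells. The fitted changes in notochord-like cells ran from -1.61 (sec61a1, SE 0.36, edgeR adjusted p 0.044) to -2.60 (serp1, SE 0.31, edgeR adjusted p 0.0028). In hatching gland-like cells they ran from -2.47 (ssr2, SE 0.27) to -3.59 (sec61b, SE 0.36, edgeR adjusted p 0.000605). With cells picked by markers none of the hatching gland-like calls was made, with estimates from -2.05 to -3.06. In notochord-like cells 5 calls were left without quadruple loss 1 and 2 without quadruple loss 2.

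When all cells outside the 2 secretory classes were pooled, the members changed less on loss of xbp1 than in either secretory class. Single classes did not all change less. In ionocyte precursor-like cells the log2 changes of sec61b, sec61g, ssr2, ssr3 and ssr4 ran from -0.72 to -1.05. For the same members they ran from -0.40 to -1.08 in notochord-like cells, and the difference was not tested. In all other cells together none was called by edgeR for loss of any factor, with 1457 (xbp1), 477 (atf6), 3215 (creb3l1) and 1223 (creb3l2) genes at an unadjusted p under 0.05 and 0.0113%, 0.00567%, 2.4% and 0.0227% of genes called. By DESeq2 1 member passed for xbp1 and 1 for creb3l1. The members' summed level in these cells was still lower without xbp1, at 2596 to 2965 CPM, against 2986 to 4052 with it. The groups lay just apart, and no share of all genes is given for this split. Among 15 other named classes with at least 20 cells in every library, loss of xbp1 was called for members in 4 classes. These were epidermis-like cells (sec61b, ssr2, ssr3 and ssr4, with 0.27% of genes called), ionocyte precursor-like cells (the same 4 and sec61g, 0.156%), otic and cranial placode-like cells (sec61b, ssr2 and ssr4, 0.0747%) and floor plate-like cells (ssr2 and ssr4, 0.0698%). In epidermis-like cells ssr2 had 256 to 287 CPM without xbp1, against 399 to 643 with it, a change of -0.98, and in ionocyte precursor-like cells sec61b had 295 to 335 CPM, against 506 to 921, a change of -1.05. The groups of these 2 genes, taken from those called, did not overlap, and no share of all genes is given for this in these classes. In the remaining 11 classes none was called by edgeR or DESeq2, with 0.0179% of gene and class pairs called by edgeR and 6487 at an unadjusted p under 0.05. The 14 calls became 1 without the xbp1 crispant library, 3 without the xbp1+atf6 crispant and 8 without the atf6+creb3l2 crispant in creb3l1 mutant. Over the same 15 classes, loss of the other 3 factors was called by edgeR for 1 member in 1 class, against 0.0138% (atf6), 0.704% (creb3l1) and 0.0219% (creb3l2) of gene and class pairs, with 4928, 17043 and 8203 of these at an unadjusted p under 0.05. With DESeq2 the counts for the members were 0, 1 and 1. The edgeR call was serp1 in floor plate-like cells on loss of creb3l2 (-0.69, edgeR adjusted p 0.0147, with 0.265% of genes called there), at 158, 225 and 259 CPM in the libraries without creb3l2, against 319, 376 and 557 with it.

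**Figure D4:**
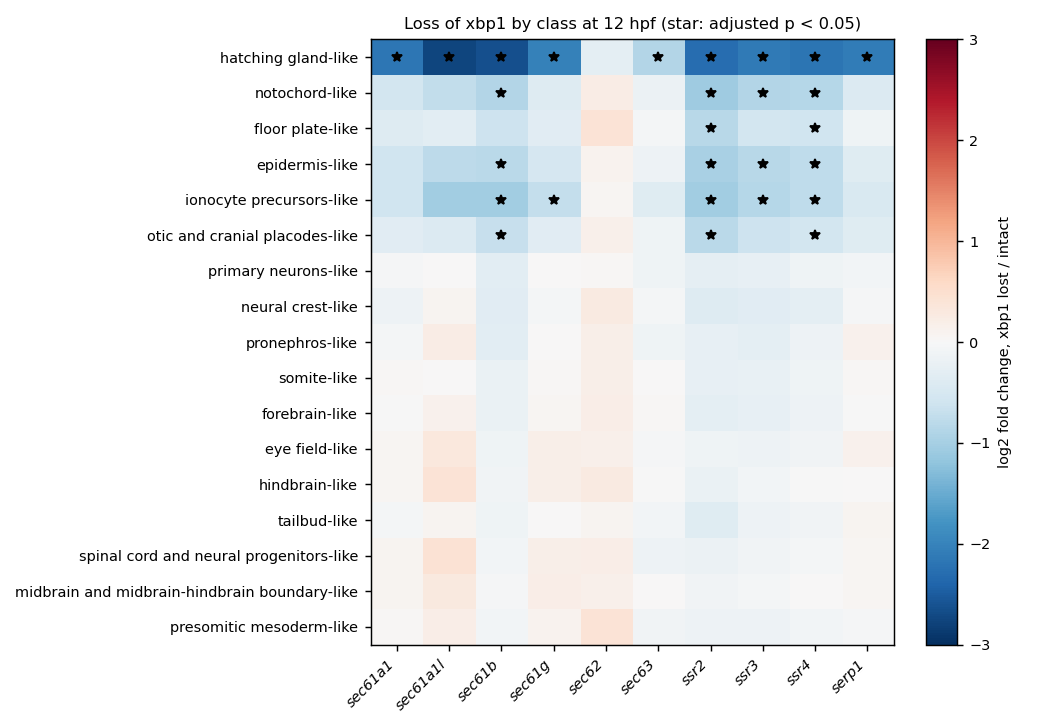
Fitted log2 fold change of each member (columns) on loss of xbp1, lost over intact, in each named class at 12 hpf (rows), on a colour scale, with a star where the edgeR adjusted p is under 0.05. The hatching gland-like row is the darkest, with 9 stars. The ionocyte precursor-like row has 5, and the epidermis-like and notochord-like rows have 4 each.

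The rest of the entry pathway was read from a list of 61 genes in 7 sets, also chosen with earlier results of these data known. Of these genes 53 were tested in hatching gland-like cells. Loss of xbp1 there lowered 32 and raised 2, where 9.6% of all genes were called, with a median log2 change of -0.71, against -0.003 over all genes. Lower were 10 of 11 oligosaccharyltransferase genes (which attach N-glycans), 7 of 8 genes of the signal recognition particle and its receptor, 6 of 7 translocon partners and 4 of 4 signal peptidase genes. Of 10 genes of the ER membrane protein complex 2 were lower and 1 higher, of 6 genes of the multipass translocon 2 were lower, and of 7 genes for tail-anchored protein insertion 1 was lower and 1 higher. Differences between the sets were not tested. The smallest p-values belonged to krtcap2 (-2.64) and ddost (-1.83), both subunits of oligosaccharyltransferase, and hyou1 (-1.82), a lumenal chaperone. In notochord-like cells loss of xbp1 lowered 3 of 54 (ddost, krtcap2 and hspa5, the BiP gene), where 0.193% of all genes were called. Loss of creb3l2 lowered 6 of 54 (2.3% of all genes), first tram1 (-1.01, SE 0.14, edgeR adjusted p 0.000511), tram2 (-0.96) and krtcap2 (-0.74), where Tram proteins sit beside the channel. Loss of creb3l1 raised emc3 in hatching gland-like cells and lowered emc8 in notochord-like cells, and loss of atf6 called no gene of the list in either class by edgeR.

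By the root mean square difference of centred log2 levels over the 16 hatching gland-like sums, the genes most like the members' median were cdk5rap3 (0.19), lrrc59 (0.20), kdelr2b (0.21), si:ch211-11k18.4 (0.22) and erlec1 (0.22), of 7247 genes compared. The members define this median, so their own distances are not comparable with those of other genes. For the members the distances were 0.18 to 0.51, apart from sec63 (1.00) and sec62 (1.21).

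At 8 hpf, every member was higher in the libraries given mRNA for the N-terminal part of creb3l1 or creb3l2 than in the mCherry library of the same xbp1 crispant background. With 1 library in each group there was no replicate check and no test, so ratios carry 95% intervals for counting error only, and the 3 N-terminal libraries share their mCherry library. Over all cells, creb3l2-N gave all 10 members more than 1.5-fold of their level with mCherry, from 1.90 for sec62 to 7.37 for serp1, where 21.8% of genes were past this fold. With creb3l1-N all 10 were past 1.5-fold, from 1.52 for sec63 to 7.64 for sec61a1l (17.5% of genes). With atf6-N only ssr4 was, at 1.64 (22.1% of genes).

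The largest ratios were in serp1, sec61a1l and ssr2. For sec61a1l the level was 873 CPM with creb3l2-N, 1016 with creb3l1-N and 106 with atf6-N, against 133 with mCherry in xbp1 crispants. For serp1 it was 2335, 2296 and 345 CPM, against 317. Relative to mCherry, sec61a1l was at 6.56 (6.41 to 6.72), 7.64 (7.46 to 7.82) and 0.80 (0.77 to 0.83), in the order creb3l2-N, creb3l1-N and atf6-N. For ssr2 the ratios in this order were 6.86, 5.49 and 1.203. In the same atf6-N library the BiP gene hspa5, named after its values were seen, had 4601 CPM against 34.3 with mCherry. Both features of serp1 were higher with creb3l2-N (1812 and 523 CPM) and creb3l1-N (1902 and 394) than with mCherry (262 and 55.2).

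**Figure D5:**
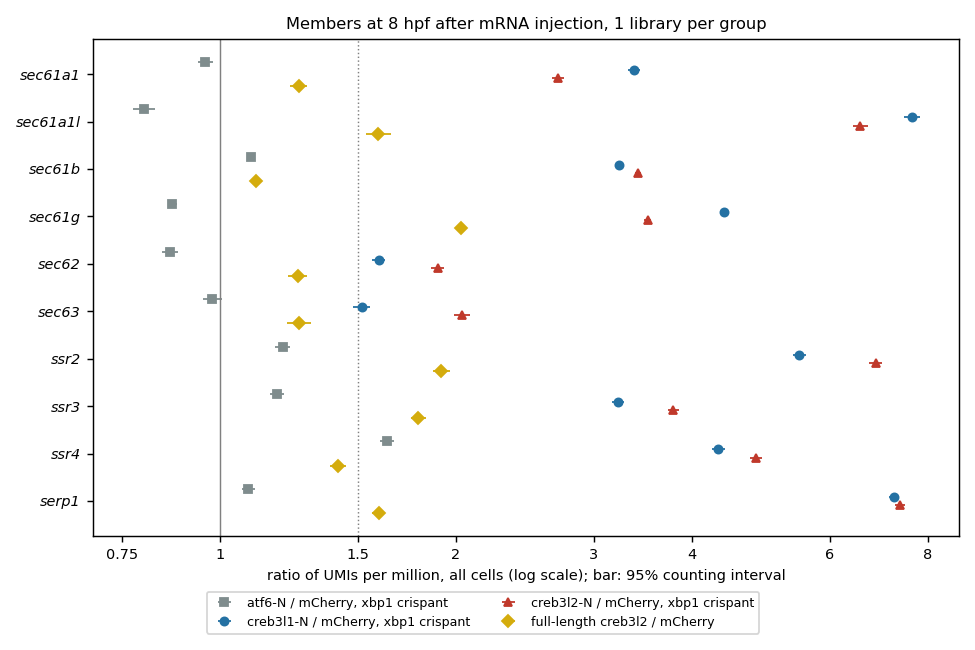
Ratio of CPM in all cells at 8 hpf (log scale, bars are 95% counting intervals) of each member, for atf6-N, creb3l1-N and creb3l2-N over mCherry in xbp1 crispants and for full-length creb3l2 over mCherry; the dotted line is 1.5. For creb3l1-N and creb3l2-N all 10 ratios lie past 1.5, and for atf6-N 1 does.

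The axial classes gave similar counts. In prechordal plate-like cells, the source of the hatching gland, the members summed to 22070 CPM with creb3l2-N, 13000 with creb3l1-N and 4466 with atf6-N, against 4598 with mCherry in xbp1 crispants, and 10, 9 and 1 members were past 1.5-fold (21.9%, 10.6% and 11.6% of genes). A library held 19 to 59 of these cells, and the median UMI count per cell in the creb3l1-N library (8874) was below that of the others. In notochord-like cells the sums were 18320, 17380 and 4060 CPM, against 3996, with 10, 9 and 0 members past 1.5-fold (21.9%, 14.1% and 15.9%). Of the 119 notochord-like cells of the atf6-N library, 104 lay in a cluster that no other library shared.

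At 8 hpf members were also past 1.5-fold higher in classes that are not secretory tissues. In epidermis-like cells creb3l2-N gave 10 such members and creb3l1-N 8, against mCherry in xbp1 crispants, where 19.2% and 10.6% of genes were past this fold. In tailbud-like cells the counts were 8 and 6 (13.7% and 6.3% of genes). With atf6-N no member was past 1.5-fold higher in either class (15.1% and 12.3% of genes). Full-length creb3l2 mRNA over mCherry gave 6 in epidermis-like and 4 in tailbud-like cells (6.01% and 4.5% of genes), at different doses.

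Without any factor mRNA, xbp1 crispants already had lower levels in these axial classes. In notochord-like cells the members summed to 3996 CPM in xbp1 crispants with 40 pg of mCherry mRNA, against 7678 in embryos with 125 pg of it, and 8 members were past 1.5-fold lower (10.8% of genes), with ssr2 lowest at a ratio of 0.35 (0.32 to 0.38). In prechordal plate-like cells the sums were 4598 CPM in xbp1 crispants and 8023 in the others, and 7 members were lower (11.9% of genes), ssr4 lowest at 0.34 (0.29 to 0.41). Over all cells the sums were 3514 CPM in xbp1 crispants and 3862 in the others, and no member passed 1.5-fold in either direction (12.7% of genes higher and 10.3% lower). For sec62 the ratio was 1.02 in notochord-like and 0.97 in prechordal plate-like cells. The mCherry doses differ, so dose and loss of xbp1 cannot be told apart.

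Full-length creb3l2 mRNA, given without loss of xbp1, gave fewer members past 1.5-fold. Relative to mCherry, over all cells, 5 of 10 were past 1.5-fold higher (8.18% of genes), sec61g (2.03), ssr2 (1.92), ssr3 (1.79), serp1 (1.60) and sec61a1l (1.59). The level of sec61g was 1520 CPM with full-length creb3l2 and 749 with mCherry, and that of serp1 643 and 403 in the same order. In prechordal plate-like cells 3 members were past 1.5-fold higher (8.46% of genes) and in notochord-like cells none (5.33%). The doses also differ here, 40 pg of creb3l2 and 125 pg of mCherry mRNA.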

How the data were processed

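Gene expression was measured by 10x Genomics single-cell RNA sequencing (V3 chemistry) in pools of about 30 embryos. The deposited matrices hold UMI counts per gene and cell, made with Cell Ranger 3.1.0 (set A) or 6.1.2 (set B and 8 hpf) per the file headers. The genome build is not given in the sources used here. Of 30 libraries, 22 were used and 8 were not analysed here. The members and lists were chosen with earlier results of these data known.

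Counts of features that share a symbol were summed (1354 features). Cells with at least 1000 UMIs and at most 10% mitochondrial UMIs were kept, and the cells with the highest doublet scores were removed at 0.8% per 1000 cells. Cells were clustered on 2000 variable genes and 40 principal components (scanpy 1.11.5, 15 neighbours, Leiden resolution 2) and named from marker lists, with the suffix "-like". Raw counts were summed per library and class. The loss of each factor was fitted in 1 additive model with the set as a term (edgeR 4.0.16, TMM factors, quasi-likelihood test, Benjamini-Hochberg adjustment over all genes kept by filterByExpr, threshold 0.05), on R 4.3.3. DESeq2 1.42.0, RLE factors, library totals, no low-count filter, other cell filters, and single libraries left out were tried as alternatives, and the fits were tested on simulated data. At 8 hpf, with 1 library per group, ratios over genes with at least 50 UMIs in both libraries carry exact conditional 95% intervals, which cover counting error only.

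All 10 members are named whatever their values. Up to 3 pathway genes with the smallest p per fit were named, and the 5 genes closest to the members' median (log2 of CPM + 1, at least 160 UMIs in all). Replicate numbers were not treated as pairs, since the labels tie them to no shared batch and the correlations of same-numbered libraries ran from -0.30 to 0.40 in hatching gland-like and from -0.31 to 0.42 in notochord-like cells. By the file headers the number follows the set in the tyr crispant and creb3l1 mutant groups, and not in the wild type or quadruple loss groups.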

Additional observations from a re-analysis of the deposited data

Results flagged for a closer look

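The change on loss of xbp1 differed between hatching gland-like and notochord-like cells by a test of the difference itself (hatching gland-like minus notochord-like, log2). It was -1.60 for sec61a1, -2.102 for sec61a1l, -1.785 for sec61b, -1.60 for sec61g, -0.62 for sec63, -1.17 for ssr2, -1.24 for ssr3, -1.32 for ssr4 and -1.68 for serp1. The change on loss of creb3l2 differed in the other direction, by 1.185 for sec61a1l, 0.61 for ssr4 and 1.21 for serp1.

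The xbp1 crispant library stood far from the other 4 libraries without xbp1 in hatching gland-like cells, above them in each case, at 1237 CPM for sec61b, 2995 for sec61g, 1170 for ssr4 and 741.9 for serp1. These libraries differ in genotype, and the xbp1 crispant is the only one that keeps atf6, creb3l1 and creb3l2. It also had the most xbp1 mRNA of them in these cells (4335 CPM, against 1464 in the lowest of them and 4519 in the lowest library with xbp1). Its distance therefore cannot be told apart from genotype or from the xbp1 mRNA left. Among the 4 controls, tyr crispant 1 was far below the others for ssr2, at 2151 CPM in hatching gland-like cells. It is the only control library in set A, so its distance cannot be told apart from set. Of 50 sets of libraries tested in this way, 5 were flagged. Chance marks about 1 in 20 where libraries are alike and genes independent, but 4 of these flags come from 1 library of its own genotype.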

How the results depend on the processing

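Over 58 called results of single members and 1240 combinations with an alternative, 1105 kept their direction and call, 135 kept their direction but not their call, and 0 changed direction. Leaving out 1 library at a time gave 9 to 9 calls in hatching gland-like cells and 0 to 5 in notochord-like cells for loss of xbp1, 3 to 6 for creb3l2 and 0 to 4 for creb3l1 in notochord-like cells, 0 to 1 for creb3l1 in hatching gland-like and 0 to 2 in all other cells. It gave 1 to 6 for the class difference of creb3l2 loss, 2 to 8 for the quadruple loss in notochord-like cells, and 1 to 15 called pairs of member and class in the other classes, against 14 with every library. Scaled by library totals, the median of all genes in the quadruple loss moved to 0.29 in hatching gland-like and 0.19 in notochord-like cells, with 8 and 7 members called.

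Without the set term the calls in notochord-like cells were 2 (xbp1), 2 (creb3l2) and 1 (creb3l1), and the pairs in other classes 8. With cells picked by markers there was 1 call for creb3l2 in notochord-like cells, 1 for its class difference, 0 for the quadruple loss in hatching gland-like cells and 1 between the classes in controls. DESeq2 made 1 call for xbp1 and 1 for creb3l1 in all other cells, 1 for atf6 in hatching gland-like cells, 4 for creb3l1 in notochord-like cells and 1 for the class difference of creb3l2 loss. With no low-count filter there were 1 for atf6 and 3 for creb3l1 in hatching gland-like cells, 4 for creb3l1 in notochord-like cells, and 1 (atf6) and 8 (creb3l2) for the class differences. The class difference of creb3l2 loss had 1 call with RLE factors, 5 with library totals, 5 with doublets kept and 1 with injection as a term. For creb3l1, 1 call was left in notochord-like cells with at most 5% mitochondrial UMIs and 1 with injection as a term, and 1 arose in all other cells without the wild-type libraries. At 2-fold, atf6-N had 0 members higher and full-length creb3l2 had 1. The cause of these shifts was not tested.

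With the replicate number as a replicate block, the quadruple loss had 8 calls in hatching gland-like and 7 in notochord-like cells, and with the numbers crossed, an alternative chosen after seeing the data, also 8 and 7. The call lost was sec61a1 in notochord-like cells (-1.61, edgeR adjusted p 0.0639 with the block), and the block changed no other call. The labels give the numbers no shared batch. By the file headers, though, the number follows the set in the tyr crispant and creb3l1 mutant groups, while the wild type and quadruple loss libraries are all in set B. With 2 libraries per group the spread is poorly known. Hatching gland-like cells numbered as few as 31 in a library.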

Other observations

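The other genes of the entry pathway were also counted over all cells at 8 hpf. Of 11 oligosaccharyltransferase genes measured, 9 were past 1.5-fold higher with creb3l2-N, 8 with creb3l1-N and 6 with atf6-N, where 21.8%, 17.5% and 22.1% of all genes were past this fold. Of 7 translocon partners, 5, 4 and 6 were, in the same order and against the same shares. Among these, tram2 had 395 CPM with creb3l2-N, 274 with creb3l1-N and 30.6 with atf6-N, against 12.2 with mCherry in xbp1 crispants. The chaperone gene hspa5 had 72.8, 39.7 and 4601 CPM, against 34.3. Both were named after their values were seen, and with 1 library per group no difference between the factors was tested.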
